A study of Mus musculus with 21 samples.

Results

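In sorted tumour endothelium, 10 genes of bone morphogenetic protein (BMP) and transforming growth factor beta (TGF-beta) signalling were followed by their symbols through the deposited expression table, which holds 45706 genes. They are the receptors and co-receptor Eng, Acvrl1, Bmpr2 and Tgfbr2, the intracellular mediators and inhibitors Smad1, Smad6 and Smad7, and the response genes Id1, Id2 and Id3. All 10 were found, and all 10 passed a filter of at least 1 TPM in at least 10 libraries, as did 13503 genes in all. TPM corrects a gene's reads for its length and sums to the same total in each library, so levels can be compared between genes.

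The cells were CD31-positive cells (CD31, encoded by Pecam1, is an endothelial surface protein) sorted from tumours of E0771.lmb, a line of mouse mammary cancer cells implanted in adult mice that had received tamoxifen. WT denotes 11 libraries from wild-type hosts. KO denotes 10 libraries from Shb iECKO hosts, which carry floxed Shb alleles and the tamoxifen-activated recombinase Cdh5-CreERt2, active in endothelial cells, a design that leaves Shb in the tumour cells and in other host cells. Tumours were taken 14 to 16 days after implantation, in 4 experiments. The strain of the mice is not given in the labels. The protocol also names a blood-cell line (Vav1-cre) and a magnetic bead step for CD45-positive cells before the sort on CD31, and no sample is assigned to that line. Experiments 1 to 4 held 3 and 2, 3 and 4, 2 and 2, and 3 and 2 libraries of WT and KO. The 21 libraries came from 17 tumours (9 WT and 8 KO), and which libraries come from 1 tumour is not in the labels, so part of the spread behind each p-value may be technical. The header of 2 columns is the same, that of KO replicate 3 of experiment 2, and they are called replicates 3a and 3b here. The second may belong to experiment 4. It stands directly before the columns of experiment 4 and, like them, is written with up to 6 decimals, where all other columns have 2. No column is headed KO replicate 3 of experiment 4, a sample that the labels list. Calls of the 10 genes that move with its place are given both ways. Differences within experiments 2 and 4 keep it in experiment 2 unless stated.

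BMP and TGF-beta ligands bind pairs of serine/threonine kinase receptors, which phosphorylate receptor-regulated Smad proteins. These enter the nucleus with Smad4 and switch on target genes, among them the Id genes and the inhibitory Smads that close a feedback loop. In blood vessels the circulating ligands BMP9 and BMP10 signal through Acvrl1 (also called ALK1), Bmpr2 and the co-receptor endoglin (Eng), and inherited loss of Eng or Acvrl1 causes hereditary haemorrhagic telangiectasia, a disease of malformed vessels. Shb, the deleted gene, encodes an adaptor that binds activated tyrosine kinase receptors.

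The libraries differed in how endothelial they were. The 12 pan-endothelial markers were all detected, with a summed level between 539 and 10847 TPM in WT (median 7292) and between 1587 and 10266 TPM in KO (median 8587). Pecam1 was lowest in WT replicate 2 of experiment 4 (95.04 TPM), KO replicate 2 of experiment 4 (242 TPM) and WT replicate 1 of experiment 2 (461 TPM), against medians of 1218 TPM in WT and 1352 TPM in KO. Results are given with and without these 3 libraries where it matters. WT replicate 2 of experiment 3 held the most transcripts of other cells, with a pan-leukocyte sum of 1588 TPM where the WT median was 161 TPM. The 4 T and NK cell markers, 1 of which passed the filter, summed to between 2.51 and 79.5 TPM in WT and between 1.51 and 27.8 TPM in KO (Lck, WT median 15.3 TPM, Cd3d under 1 TPM in every library). The 4 B cell markers, none of which passed, summed to at most 6.23 TPM in WT and 5.83 TPM in KO. Shb itself ran from 17.3 to 74.3 TPM in WT (median 31.8) and from 6.00 to 52.7 TPM in KO (median 13.7). It was 0.91 lower in KO on the log2(TPM + 1) scale (two-sided exact permutation test within experiments, p = 0.02229), with differences of -1.59 and -1.85 in experiments 2 and 4. In experiments 1 and 3 the libraries labelled KO were not lower (0.29 and -0.06), so WT and KO below are the labels. The Shb difference missed p = 0.05 without the 3 libraries lowest in Pecam1 (-0.82, exact permutation p = 0.0748), without experiment 2 (-0.57, p = 0.227) and without experiment 4 (-0.62, p = 0.165). It also missed it without both columns of the shared header (-0.71, p = 0.0688).

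Promoter sequence is shown for 3 of the genes. Eng and Tgfbr2 are the pair of the 10 whose levels ran most closely together over all 21 libraries. Smad6 is an inhibitor that is itself a textbook target of BMP signalling. Windows of 7 of the 10 genes were read from RefSeq promoters (GRCm38.p6), and those of Acvrl1, Id1 and Smad7 were not. Each line gives the 250 bases before the annotated start, read 5′ to 3′ on the gene's strand, with matches to the Smad-binding core CAGAC, or GTCTG on the other strand, in capitals. Eng (chr2:32646345-32646594, plus strand) held 2 matches, which began at -214 and -127 from the start. Tgfbr2 (chr9:116175364-116175613, minus strand) held 1, at -160, and Smad6 (chr9:64022060-64022309, minus strand) held none.
Eng: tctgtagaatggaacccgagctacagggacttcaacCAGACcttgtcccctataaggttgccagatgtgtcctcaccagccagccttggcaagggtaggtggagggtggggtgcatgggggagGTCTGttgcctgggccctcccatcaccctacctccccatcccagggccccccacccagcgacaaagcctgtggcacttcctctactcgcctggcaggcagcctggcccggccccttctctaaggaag
Tgfbr2: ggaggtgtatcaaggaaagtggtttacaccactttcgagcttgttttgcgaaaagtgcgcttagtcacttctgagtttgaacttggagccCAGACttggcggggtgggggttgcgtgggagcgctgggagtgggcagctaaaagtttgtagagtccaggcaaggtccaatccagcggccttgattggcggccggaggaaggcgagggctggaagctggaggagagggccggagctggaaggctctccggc
Smad6: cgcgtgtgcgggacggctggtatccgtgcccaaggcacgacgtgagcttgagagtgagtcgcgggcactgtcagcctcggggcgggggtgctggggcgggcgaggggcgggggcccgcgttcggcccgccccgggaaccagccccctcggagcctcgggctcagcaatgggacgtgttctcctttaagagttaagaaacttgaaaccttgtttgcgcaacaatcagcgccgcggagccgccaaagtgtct
The core is short and common: 42.2% of 32851 promoter windows of the same length held it on one strand or the other. The longer palindromic element GTCTAGAC was in none of the 3 windows and in 0.167% of all of them. The GC-rich BMP element GGCGCC was in none of the 3 and in 9.59% of all. Among the windows read but not shown, Bmpr2 held 1 match (at -105) and Id2 held 1 (at -231), while Id3 and Smad1 held 0. The core GGAA of ETS factors (TTCC on the other strand), a factor family with many endothelial targets, matched 3 times for Eng, 4 times for Tgfbr2 and once for Smad6, and at least 1 match was present in 93.4% of all windows. No match of GGAA overlapped one of CAGAC in these 3 windows. A match is a description of the letters only.

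Eng, the endothelial co-receptor, had the highest level of the 10 genes by a wide margin. It averaged 835 ± 389 TPM (SD, n = 21), which placed it above 99.5% of the genes tested. Id1 followed with 244 ± 98.4 TPM (SD, n = 21). Eng was above Id1, and Id1 above Bmpr2, in 21 of 21 libraries. Bmpr2 (137 ± 58.2 TPM), Acvrl1 (137 ± 55.4 TPM), Id3 (136 ± 67.4 TPM) and Smad1 (128 ± 59.1 TPM) stood so close that their order changed between libraries (SD, n = 21 each). For example, Bmpr2 was above Acvrl1 in 9 of 21 libraries and Acvrl1 above Id3 in 11. Tgfbr2 came next with 102 ± 39.6 TPM and Smad7 with 73.2 ± 32.9 TPM (SD, n = 21), and Tgfbr2 was the higher of the pair in 16 of 21 libraries. Id2 (25.6 ± 19.9 TPM) and Smad6 (25.2 ± 18.3 TPM) were lowest, and Id2 was above Smad6 in 11 of 21 libraries (SD, n = 21). These 2 lay near the middle of the genes tested, above 59.5% and 53.4% of them.

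**Figure D1:**
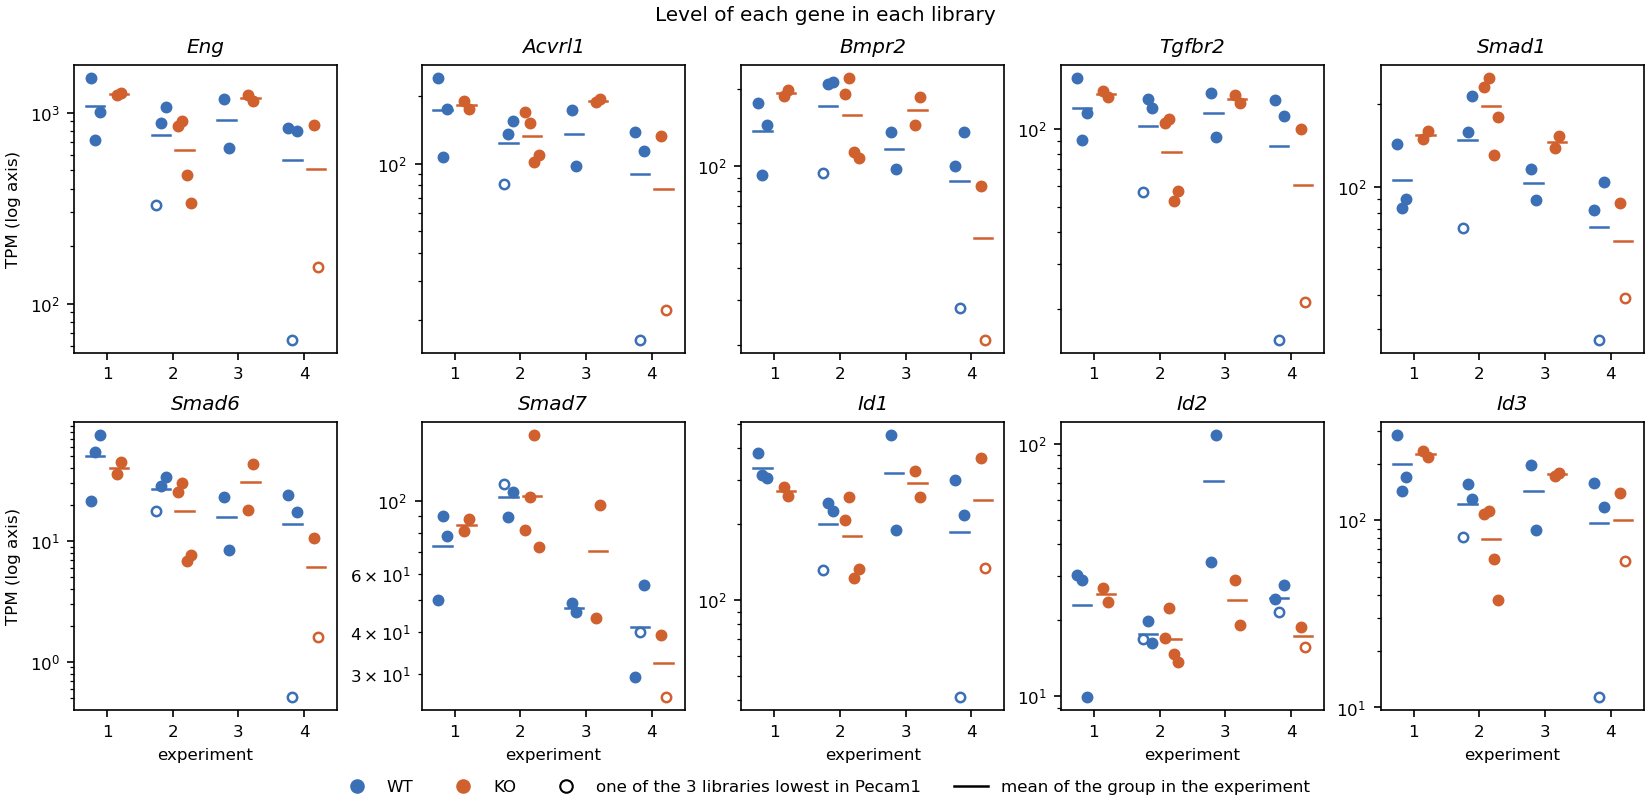
Level in TPM (log axis) of each of the 10 genes in each library, by experiment, for WT (blue) and KO (orange). Open points are the 3 libraries lowest in Pecam1 and the short lines are the means of a group within an experiment. The WT and KO points overlap for each gene over all experiments, and an open point of experiment 4 is the lowest for 9 of the 10 genes.

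Among the receptors, no difference between KO and WT passed the test, nor did one for any of the other 6 genes. In limma with an experiment term, 0 of the 10 genes had a Benjamini-Hochberg adjusted p under 0.05 and 0 had an unadjusted p under 0.05. Over all genes tested 1 gene, the histone gene Hist1h4m, was called at the adjusted threshold, which is 0.00741% of 13503. At an unadjusted p under 0.05, 4.93% of all genes were lower and 0.948% higher in KO. Of the 10 genes 7 had a difference above 0 and 3 below, with a median of 0.04 on the log2(TPM + 1) scale, beside a median of -0.11 over all genes tested, 64.0% of which were below 0. Differences on that scale understate the change of low genes.

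Eng ran from 64.7 to 1511 TPM in WT (median 832) and from 155 to 1272 TPM in KO (median 882). The lowest values were those of WT replicate 2 and KO replicate 2 of experiment 4, the 2 libraries lowest in Pecam1, and the ranges overlapped. WT averaged 823 ± 395 TPM and KO 847 ± 403 TPM (SD, n = 11 and 10). The difference of 0.10 had a 95% interval from -0.73 to 0.92 (limma adjusted p = 0.983).

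Acvrl1, the type I receptor that endoglin assists, ran from 16.3 to 241 TPM in WT (median 136) and from 22.2 to 194 TPM in KO (median 161). The KO range lay inside the WT range. The difference was 0.13 (95% interval -0.57 to 0.82, limma adjusted p = 0.976). Its partner Bmpr2, the type II receptor for BMPs, ran from 27.9 to 213 TPM in WT (median 136) and from 21.0 to 220 TPM in KO (median 165). With a difference of 0.01 (95% interval -0.61 to 0.63, limma adjusted p = 0.997) it was the member closest to 0. Tgfbr2, the type II receptor for TGF-beta itself, ran from 15.2 to 157 TPM in WT (median 115) and from 21.2 to 140 TPM in KO (median 107). Here the difference was -0.11 (95% interval -0.80 to 0.57, limma adjusted p = 0.978), and 6 of 10 KO libraries lay below the WT median.

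Smad1, which carries the BMP signal to the nucleus, had the largest difference above 0. It ran from 27.5 to 214 TPM in WT (median 90.4) and from 38.9 to 249 TPM in KO (median 151). Both groups spanned most of the same range, and 8 of 10 KO libraries lay above the WT median. WT averaged 107 ± 49.9 TPM and KO 152 ± 61.8 TPM (SD, n = 11 and 10). The difference of 0.39 (95% interval -0.13 to 0.92) did not pass (limma p = 0.137, adjusted p = 0.842). It was 0.59, 0.52 and 0.51 in experiments 1, 2 and 3, and -0.08 in experiment 4. With KO replicate 3b counted in experiment 4 it was above 0 there as well. On a common library median it came to 0.50 with an unadjusted limma p of 0.0147, and without the 3 libraries lowest in Pecam1 to 0.30 with p = 0.114. Relative to the mean of the pan-endothelial markers of the same library it was 0.22 (limma p = 0.433). With the means of the pan-leukocyte and fibroblast markers as covariates it was 0.015 (limma p = 0.955). The adjusted p stayed at 0.277 or above under the 40 alternatives tried.

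The inhibitory Smads, which block the receptors and Smad1, went no further apart. Smad6 ran from 0.51 to 74.5 TPM in WT (median 23.2) and from 1.62 to 45.2 TPM in KO (median 21.8), the widest relative span of the 10 genes. Its difference was -0.28 (95% interval -1.22 to 0.66, limma adjusted p = 0.957), and 5 of 10 KO libraries lay on each side of the WT median. With the means of the pan-leukocyte and fibroblast markers as covariates it was -1.25 (limma p = 0.00619, adjusted p = 0.758). Smad7, which restrains both branches of the pathway, ran from 29.2 to 113 TPM in WT (median 55.5) and from 25.5 to 158 TPM in KO (median 81.5). The highest value was that of KO replicate 3a of experiment 2. The difference was 0.05 (95% interval -0.37 to 0.48, limma adjusted p = 0.982), the narrowest interval of the 10.

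The Id genes encode inhibitors of DNA binding that lack a DNA-binding region of their own and are standard readouts of BMP signalling. Id1 ran from 41.3 to 448 TPM in WT (median 243) and from 123 to 365 TPM in KO (median 256), with a difference of 0.03 (95% interval -0.60 to 0.65, limma adjusted p = 0.995). Id3 ran from 11.4 to 284 TPM in WT (median 143) and from 37.6 to 235 TPM in KO (median 126), with a difference of 0.05 (95% interval -0.71 to 0.81, limma adjusted p = 0.992). For both genes the KO range lay inside the WT range.

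Id2 behaved apart from Id1 and Id3. It ran from 9.95 to 108 TPM in WT (median 24.2) and from 13.7 to 28.9 TPM in KO (median 19.0), and 8 of 10 KO libraries lay below the WT median. The top WT value was that of replicate 2 of experiment 3, the library richest in leukocyte transcripts, and the next WT value was 34.1 TPM. The difference was -0.33 (95% interval -0.86 to 0.19, limma p = 0.204, adjusted p = 0.869). Without that library it was -0.15 (limma p = 0.516). The WT mean was 30.7 ± 26.6 TPM with it (SD, n = 11) and 23.0 ± 7.44 TPM without it (SD, n = 10), beside 20.1 ± 5.20 TPM in KO (SD, n = 10). In bulk libraries fewer cells of a type and less RNA per cell cannot be told apart.

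**Figure D2:**
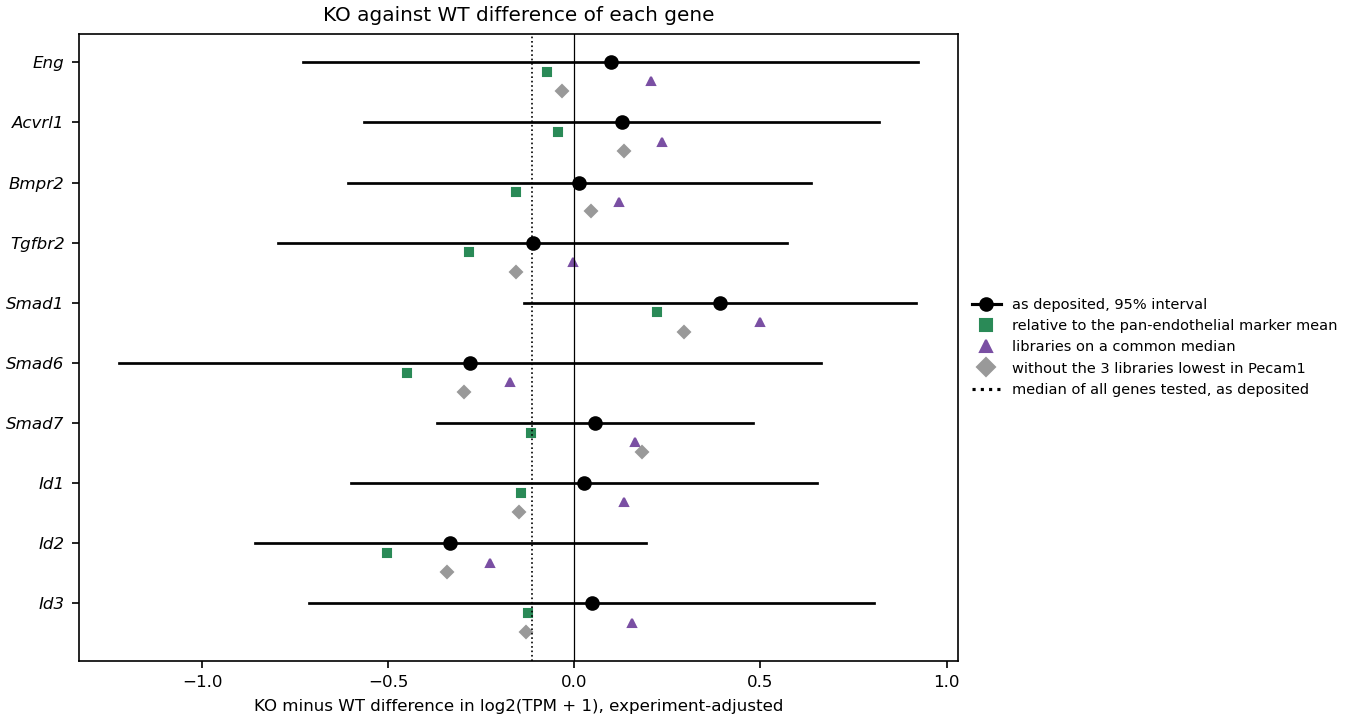
KO minus WT difference in log2(TPM + 1) of each gene, adjusted for the experiment, with its 95% interval (black), relative to the pan-endothelial marker mean (green squares), with libraries on a common median (purple triangles) and without the 3 libraries lowest in Pecam1 (grey diamonds). Each interval crosses 0, Smad1 lies farthest to the right at 0.39, and the dotted line is the median of all genes tested at -0.11.

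The sign of several of these small differences depended on the libraries and on the scale. Over 40 alternatives between 1 and 9 of the 10 genes were below 0. Relative to the pan-endothelial markers 9 were below 0, with Smad1 the exception, and the median of all genes was -0.28. Without the 3 libraries lowest in Pecam1 6 were below 0, and the median of all genes was -0.03. Under the 40 alternatives 0 of 400 differences reached an adjusted p under 0.05 in limma, and 8 had an unadjusted p under 0.05, of which 6 were of Smad1. On the common median the median of all genes moved from -0.11 to -0.01, and that of the 10 genes from 0.04 to 0.14.

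The same contrast was then read within each experiment. In experiment 3 the KO mean lay above the WT mean for Eng (0.44), Acvrl1 (0.55), Bmpr2 (0.51), Tgfbr2 (0.20), Smad1 (0.51), Smad6 (0.94), Smad7 (0.46) and Id3 (0.41) on the log2(TPM + 1) scale, and below it for Id1 (-0.02) and Id2 (-1.33). That WT mean rests on 2 libraries, of which replicate 2 had a pan-endothelial marker mean of 8.01, against 8.94 to 9.13 in the other 3 libraries of the experiment, and the highest macrophage mean. Experiment 2 gave -0.20 for Eng, 0.12 for Acvrl1, -0.10 for Bmpr2, -0.80 for Smad6 and -0.69 for Id3. In experiment 4, whose group means rest on 3 and 2 libraries with a Pecam1-poor library in each group, Bmpr2 differed by -0.77, Id1 by 0.67 and Id3 by 0.59. With KO replicate 3b in experiment 2, no gene of the 10 had 1 sign in all 4 experiments. Counted in experiment 4, it left the KO means of Eng, Acvrl1, Smad1 and Smad7 above the WT means in all 4. Bmpr2 and Id2 then turned above 0 in experiment 2 as well. A test of whether the genotype difference varied between experiments (limma, interaction terms) called 0 of the 10 genes and 0% of all genes tested. At an unadjusted p under 0.05 it gave 0 of the 10 genes and 518 of 13503.

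**Figure D3:**
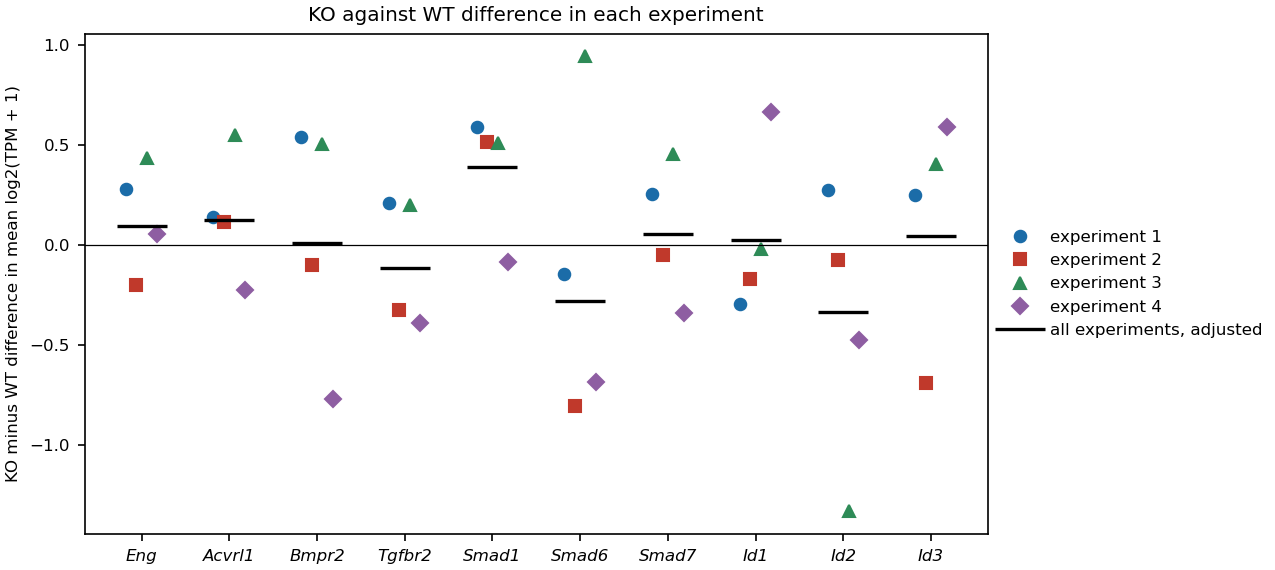
KO minus WT difference in mean log2(TPM + 1) within each of the 4 experiments (symbols) and over all of them, adjusted for the experiment (bars), for each of the 10 genes. The symbols of each gene fall on both sides of 0, with Smad1 at 0.59, 0.52 and 0.51 in experiments 1 to 3 and -0.08 in experiment 4, and Id2 at -1.33 in experiment 3.

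The experiments themselves separated the levels of some of these genes more than the genotype did. With genotype in the fit, 4 of the 10 genes differed between experiments at an adjusted p under 0.05 (limma F test), beside 29.1% of all genes tested. They were Smad7 (adjusted p = 0.00584), Smad1 (0.0274), Smad6 (0.0308) and Bmpr2 (0.0355). The others ranged from Acvrl1 (0.0627) and Id3 (0.0817) through Eng (0.0847), Id2 (0.102) and Tgfbr2 (0.140) to Id1 (0.195).

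Smad7 showed the clearest separation, and 69.5% of its spread in log2(TPM + 1) lay between experiments. Experiment 2 averaged 103 ± 27.8 TPM (SD, n = 7) with values from 72.7 to 158 TPM. Experiment 4 averaged 37.9 ± 11.7 TPM (SD, n = 5) with values from 25.5 to 55.5 TPM, so the 2 did not overlap. Experiment 1 (77.6 ± 16.2 TPM, SD, n = 5) and experiment 3 (59.0 ± 25.4 TPM, SD, n = 4) lay between. With KO replicate 3b counted in experiment 4, experiment 2 ran upward from 81.7 TPM and experiment 4 up to 72.7 TPM, and the test gave an adjusted p of 0.0144 (limma). Without the 3 libraries lowest in Pecam1 the means were 102 ± 30.1 TPM in experiment 2 (SD, n = 6) and 41.3 ± 13.3 TPM in experiment 4 (SD, n = 3), with an adjusted p of 0.0363 (limma).

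Smad1 followed the same order at its extremes, with 176 ± 62.7 TPM in experiment 2 (SD, n = 7) and 68.0 ± 33.0 TPM in experiment 4 (SD, n = 5). With KO replicate 3b counted in experiment 4, whose mean was then 86.6 ± 54.4 TPM (SD, n = 6), Smad1 missed the threshold (limma adjusted p = 0.0850), and the other 3 genes passed it. Over the 27 alternatives of this test, that one included, 2.37% to 37.6% of all genes passed. Bmpr2 averaged 164 ± 56.3 TPM and 73.6 ± 48.7 TPM in those 2 experiments (SD, n = 7 and 5). Smad6 differed in that experiment 1 was its highest, with 46.1 ± 19.9 TPM (SD, n = 5), against 10.8 ± 10.1 TPM in experiment 4 (SD, n = 5).

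The libraries of experiment 4 also tended to differ in make-up, though their ranges overlapped those of the others. The median log2(TPM + 1) of an experiment 4 library over the genes tested was 2.95 to 4.06, where the other experiments ran from 3.98 to 4.54. Mitochondrial genes took 4.33% to 23.0% of the TPM of experiment 4, a range that overlapped the 1.27% to 17.2% of the other experiments. Mitochondrial genes and a set of noncoding RNAs together took 30.5% to 55.5% of the TPM of experiment 4, and 7.96% to 31.9% elsewhere. The 3.98, the 17.2% and the 31.9% are those of KO replicate 3b. Apart from that library the highest joint share elsewhere was 25.9%. On a common library median 0 of the 10 genes differed between experiments (limma adjusted p = 0.0518 for Smad7), while 18.5% of all genes did. Relative to the pan-endothelial markers 0 did, beside 2.37% of all genes, and Smad7 had an adjusted p of 0.412 (limma). Without the 3 libraries lowest in Pecam1 Smad7 alone was called, beside 14.2% of all genes. The same count of 1 came without KO replicate 2 or WT replicate 2 of experiment 4 singly, a count of 2 without KO replicate 2 of experiment 1 or WT replicate 3 of experiment 2, and a count of 7 without WT replicate 1 of experiment 4. With single libraries left out the share of all genes called moved too, from 17.4% (without KO replicate 2 of experiment 4) to 37.6% (without WT replicate 3 of experiment 4). The part of library make-up in the differences between experiments was not tested beyond these values.

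Apart from Smad7 and Id2, the 10 genes rose and fell together from library to library. After removal of the experiment means, the 45 pairs had a median Pearson r of 0.756 over 21 libraries, 38 were above 0 and 19 above 0.8. The highest was Eng with Tgfbr2, whose promoters are shown above (r = 0.974, Spearman rho = 0.966). Eng with Acvrl1 reached 0.958 and Id1 with Id3 0.919. Smad6, whose window held no CAGAC, had r = 0.807 with Eng and 0.835 with Tgfbr2. The points share library, depth and composition, so these values are descriptions. Without the 3 libraries lowest in Pecam1 the median over pairs was 0.501. Eng with Tgfbr2 then had 0.925, and Eng with Id3 was highest at 0.955.

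For 8 of the 10 genes this shared movement went with the pan-endothelial markers. With the mean log2 level of the 12 pan-endothelial markers, Eng had r = 0.982, Acvrl1 0.960, Tgfbr2 0.956, Id1 0.929, Id3 0.909, Bmpr2 0.868, Smad1 0.863 and Smad6 0.810 (n = 21). Smad7 (0.01) and Id2 (-0.02) had none of this relation over all 21 libraries. For Id2 the value was 0.242 without WT replicate 2 of experiment 3. Once that mean was removed by regression, the median over pairs was 0.0885, 0 pairs were above 0.8 and the highest was Bmpr2 with Tgfbr2 at 0.696. Against all 13503 genes, the median r of a single one of the 10 genes lay between 0.0992 for Smad7 and 0.423 for Bmpr2.

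**Figure D4:**
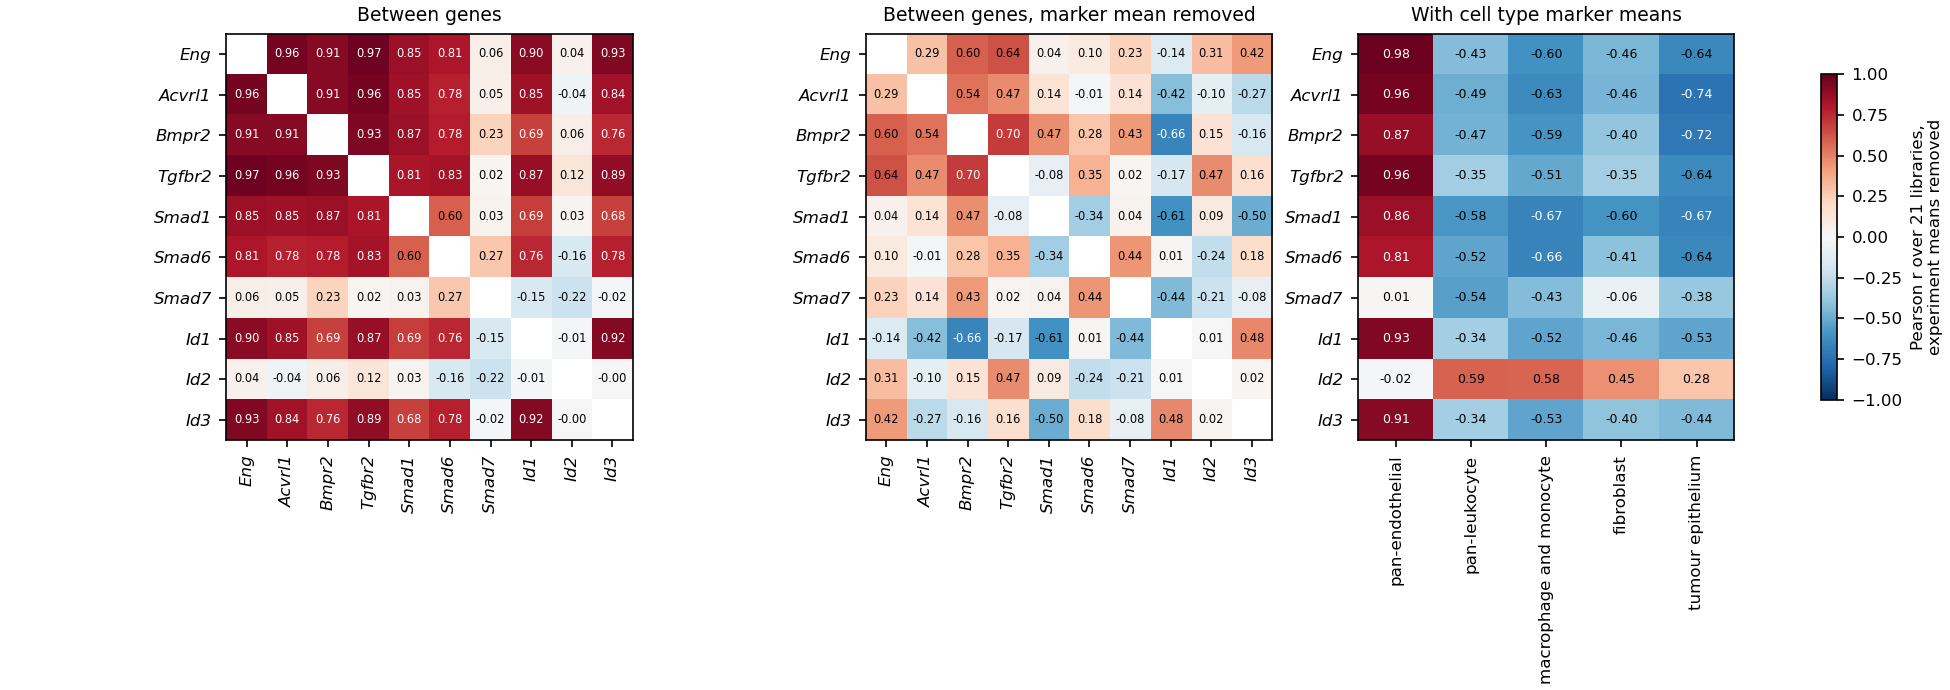
Pearson r over 21 libraries with experiment means removed, between the 10 genes (left), between them after the mean of the 12 pan-endothelial markers was also removed (middle), and with the means of 5 cell type marker lists (right). Red is positive and blue negative. The left panel is mostly red except for the rows of Smad7 and Id2, the middle panel is mixed, and in the right panel Id2 alone is positive with the leukocyte and macrophage lists.

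Over all libraries Id2 went with other cells' markers more than with the endothelial ones. Its r was 0.592 with the 6 pan-leukocyte markers, 0.583 with the 8 macrophage and monocyte markers and 0.792 with the 4 platelet markers (n = 21). Spearman rho for the leukocyte and macrophage lists was 0.284 and 0.252. Without WT replicate 2 of experiment 3 the Pearson values were 0.236, 0.221 and 0.636, beside 0.242 with the pan-endothelial markers. The macrophage list had all 8 genes above the filter, and its summed level ran from 38.5 to 4430 TPM in WT and from 17.4 to 169 TPM in KO. In KO libraries the pan-leukocyte sum ran from 72.8 to 225 TPM, and in WT from 103 to 1588 TPM. The platelet list, with 2 of 4 genes above the filter, summed to between 0 and 402 TPM in WT and between 0.57 and 57.5 TPM in KO. Lyz2 of myeloid cells reached 1572 TPM in WT and 91.9 TPM in KO. The part of these cells in the Id2 values was not tested.

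The genes most like each of the 10 were then listed by Pearson r over the 21 libraries, experiment means removed. Eng ran closest with Cd34 (0.986), Kdr (0.986) and Tie1 (0.986), a surface glycoprotein and a pair of receptors typical of endothelium. Without the 2 libraries farthest from the Eng median these were 0.960, 0.951 and 0.948, and with the pan-endothelial mean removed 0.568, 0.644 and 0.577. Acvrl1 ran with Fam43a (0.973), Slc9a3r2 (0.969) and Thsd1 (0.968), and Tgfbr2 with Myct1 (0.985), App (0.980) and Fzd4 (0.976). With the pan-endothelial mean removed these were 0.586, 0.483 and 0.598 for Acvrl1 and 0.817, 0.736 and 0.690 for Tgfbr2. Bmpr2 had Tram2 (0.976), Myo1c (0.976) and Sh2b3 (0.975) nearest, at 0.929, 0.917 and 0.902 after the same removal.

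Smad1 was nearest to Ifi44 (0.970), Dock4 (0.955) and Piezo2 (0.943), and Smad6 to Rnf122 (0.902), Tm4sf1 (0.896) and Tspan2 (0.894), with 0.757 to 0.878 and 0.648 to 0.694 after the removal. Smad7 had lower values, with Arid2 (0.883), Ampd2 (0.821) and Fzd5 (0.816) at the top, and removal of the pan-endothelial mean left them at 0.883, 0.871 and 0.837. Id1 was nearest to Gng11 (0.957), Mmrn2 (0.950) and Fam198b (0.949). Id3 was nearest to Fut11 (0.964), Aplnr (0.961) and Thbd (0.957). The removal left 0.583 to 0.654 for the genes near Id1 and 0.722 to 0.776 for those near Id3. For Id2 the nearest were Themis2 (0.805), Ctsd (0.778) and Slc15a3 (0.762), and without the 2 libraries farthest from the Id2 median these were 0.697, 0.748 and 0.197, so the last rests on those libraries.

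Other genes of the pathway were read from a list of 60, of which 47 passed the filter. In limma 0 of 47 were called at the adjusted threshold in either direction. At an unadjusted p under 0.05, 3 were lower in KO (Inhba, Tgfb3 and Tgfbi) and 0 were higher, beside 4.93% and 0.948% of all genes. Of the 47 genes 26 were below 0, beside 64.0% of all genes. Their median difference was -0.08 beside -0.11 over all genes (0.02 beside -0.01 on a common library median). Between experiments 16 of 47 differed, again beside 29.1% of all genes, and the genotype difference varied between experiments for 0 of 47.

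Of 12 ligands 9 were tested, and 2 were lower at the unadjusted threshold, as were 4.93% of all genes. Inhba, a subunit of activins, ran from 0 to 43.7 TPM in WT (median 1.55) and from 0 to 2.83 TPM in KO (median 0.57), with the WT maximum in replicate 2 of experiment 3 and the next value at 8.77 TPM. Its difference was -0.99 ± 0.46 (SE, limma p = 0.0414, adjusted p = 0.820). Tgfb3, a TGF-beta isoform, ran from 0 to 5.25 TPM in WT and from 0 to 2.99 TPM in KO, with a difference of -0.78 ± 0.36 (SE, limma p = 0.0416, adjusted p = 0.820). The maximum was again that of WT replicate 2 of experiment 3.

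Bmp2, a BMP that endothelium makes, averaged 54.1 ± 32.9 TPM for WT and 76.7 ± 34.6 TPM for KO (SD, n = 11 and 10), a difference of 0.50 ± 0.31 (SE, limma adjusted p = 0.838). Tgfb1, the most abundant of the ligands tested, had 243 ± 83.7 TPM and 222 ± 107 TPM (SD, n = 11 and 10). Inhbb, which encodes another activin subunit, had 147 ± 82.9 TPM and 158 ± 71.9 TPM (SD, n = 11 and 10). Bmp7, Bmp10 and Gdf2, the gene of BMP9, did not pass the filter.

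Of 8 other receptors 7 were tested, 0 were called, 6 were below 0 and their median was -0.31. Over all genes tested 64.0% were below 0 and the median was -0.11. Acvr1b had a difference of -0.40 ± 0.24 (SE, limma adjusted p = 0.834), Acvr1 of -0.31 ± 0.25 (SE, adjusted p = 0.881) and Tgfbr1 of -0.31 ± 0.28 (SE, adjusted p = 0.904). Tgfbr1, the kinase partner of Tgfbr2, was highest in KO replicate 3b (58.3 TPM), and the other KO libraries reached 25.7 TPM. Tgfbr3, also called betaglycan and related to endoglin, had 84.9 ± 37.2 TPM for WT and 72.2 ± 20.4 TPM for KO (SD, n = 11 and 10).

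The other Smads were close to level. Of 5, 4 were tested and 0 were called, with differences of 0.13 for Smad2, -0.08 for Smad3, 0.06 for Smad4 and 0.01 for Smad5. Smad5, which shares the BMP branch with Smad1, had 68.0 ± 23.3 TPM for WT and 74.8 ± 30.0 TPM for KO (SD, n = 11 and 10). Smad9 did not pass the filter. Smad3 and Smad5 differed between experiments (limma adjusted p = 0.0482 and 0.0257).

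Among antagonists and modulators 15 of 21 were tested, 0 were called and 10 were below 0, beside 64.0% of all genes. Ltbp1, which tethers latent TGF-beta to the matrix, had the largest of the differences named, -0.80 ± 0.46 (SE, limma adjusted p = 0.834). It ran from 0.83 to 30.7 TPM in WT and from 0.50 to 6.14 TPM in KO, with the WT maximum in the library lowest in Pecam1. Ltbp4, of the same family, averaged 230 ± 126 TPM for WT and 197 ± 82.1 TPM for KO (SD, n = 11 and 10). Tgif1, a repressor of Smad targets, had 133 ± 62.0 TPM and 125 ± 61.6 TPM, and Ltbp3 had 9.45 ± 4.21 TPM and 7.57 ± 2.43 TPM (SD, n = 11 and 10).

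Of 14 further targets 12 were tested and 0 were called. Tgfbi, a matrix protein named for its induction by TGF-beta, ran from 24.4 to 622 TPM in WT (median 47.3) and from 20.0 to 79.6 TPM in KO (median 31.7). Its maximum was that of WT replicate 2 of experiment 3, and the next WT value was 141 TPM. The difference was -0.84 ± 0.35 (SE, limma p = 0.0263, adjusted p = 0.820). Hey1, a target shared by the Notch and BMP pathways, had 72.8 ± 35.3 TPM for WT and 97.2 ± 48.5 TPM for KO (SD, n = 11 and 10), with a difference of 0.35 ± 0.37 (SE, limma adjusted p = 0.917). Junb (0.19), Cyr61 (0.18) and Cdkn1a (-0.18) differed by less than their standard errors (0.30, 0.31 and 0.24). The library that held the maxima of Inhba, Tgfb3 and Tgfbi is the one with the highest means of the pan-leukocyte (7.78), macrophage (8.53) and fibroblast (5.83) markers in log2(TPM + 1). Over all libraries the fibroblast mean was 2.98 ± 1.42 in WT and 1.92 ± 0.88 in KO, and the pericyte and smooth muscle mean 2.94 ± 0.63 and 1.97 ± 0.98 (SD, n = 11 and 10). The fibroblast sum, with 4 of 6 genes above the filter, ran from 28.0 to 575 TPM in WT and from 8.15 to 153 TPM in KO. The pericyte sum, with 5 of 7, ran from 32.2 to 182 TPM and from 4.51 to 138 TPM. The part of these cells in the 3 values was not tested.

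In the GENCODE annotation of GRCm38 the 10 genes lie on 8 chromosomes, with Eng and Id1 both on chromosome 2 (32646595 to 32682669 and 152736251 to 152737410, plus strand) and Smad6 and Tgfbr2 both on chromosome 9 (63953076 to 64022059 and 116084293 to 116175360, minus strand). Bmpr2 is at 1:59763400-59879014 (plus), Id3 at 4:136143497-136145755 (plus), Smad1 at 8:79338395-79399518 (minus), Id2 at 12:25093799-25097140 (minus), Acvrl1 at 15:101128522-101145336 (plus) and Smad7 at 18:75367529-75395935 (plus).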

How the data were processed

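RNA of 21 libraries was sequenced as stranded, ribosome-depleted total RNA from 30 ng with paired reads of 150 bases, per the labels' protocols. The authors' deposited table gives TPM, with a decimal comma, for 45706 genes in 21 columns, whose totals lie between 999999.2 and 1000000.6. The submitters' processing notes name the build GRCm38, and no source used here names the aligner or the counter. A TPM value keeps no depth, so the reads behind a value are unknown and no counting interval is given. Between 12178 and 20526 genes per library were above 0. Of the deposited gene names, 27 turned into dates were restored from their identifiers.

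Genotype and experiment were taken from column names, and the 2 columns with 1 header were kept as that header states. A gene was tested where 10 or more libraries had 1 TPM or more (13503 genes), and log2(TPM + 1) was fitted in limma 3.58.1 (statmod 1.5.0, R 4.3.3) with a trended, robust prior and terms for genotype and experiment. Calls were made at a Benjamini-Hochberg adjusted p under 0.05 over all of them. The script was tested on simulated data. Shb was tested exactly over 21000 arrangements of labels within experiments. Correlations used Pearson r with experiment means removed.

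The 10 genes, the lists and the tests were chosen with earlier results of these data known. Named genes are the 10, Shb, any gene called, the 3 genes most like each of the 10 (predicted gene models left out, mean log2(TPM + 1) of at least 3), cell type markers beside a result, and, per role of the pathway list, up to 3 genes with the smallest p and up to 2 with the highest mean TPM. Alternatives covered the pseudocount, filter, scaling, experiment term, replicate numbers, marker covariates, prior, and libraries or experiments left out. The scalings of the test between experiments to endothelial markers and without mitochondrial and noncoding RNAs were added after seeing the data.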

Additional observations from a re-analysis of the deposited data

Results flagged for a closer look

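In KO of experiment 2 the highest Shb value of 4 libraries stood apart: KO replicate 2 had 34.9 TPM and the next 14.3 TPM, so the gap took 0.861 of the range, above the Dixon limit for 4 values. In this library Smad1 (249 TPM) and Bmpr2 (220 TPM) had their highest KO values, and the rest of the 10 genes had theirs in other libraries. Its median log2(TPM + 1) over the genes tested, 4.54, was the highest of the 21 libraries. Bmp2, Smad3, Smad5, Acvr1 and Hey1 also had their highest KO values in it, while most other pathway genes named had not. A relation of these values to Shb was not tested. With KO replicate 3b counted in experiment 4 the group has 3 libraries, too few for this comparison. Chance singles out about 1 in 20 groups in this way.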

How the results depend on the processing

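No member passed the adjusted threshold under any of the 40 alternatives. The count of all genes called was 2 on a common median and after quantile normalization, and 0 under the replicate block and without experiment 1 or 2 (limma; with all libraries 794 genes had an unadjusted p under 0.05). Whether replicate numbers pair the libraries is not in the labels. Deviations of same-numbered WT and KO libraries from their group means had correlations from -0.200 to 0.356, with 0.316 and 0.356 in experiment 4. These cannot settle it, because the groups are so small that in experiment 3 both pairs must take the same value. In the replicate block Shb came to -0.49 (exact permutation p = 0.297). The exact test of Shb missed p = 0.05 as well without experiment 2 (-0.57), experiment 4 (-0.62), the 3 libraries lowest in Pecam1 (-0.82) or both columns of the shared header (-0.71). Shb was not among the genes called in limma with all libraries. The Shb difference ranged from -1.08 to -0.79 with each library left out in turn.

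Members called between experiments numbered 0 on a common median (beside 18.5% of all genes) and 0 relative to pan-endothelial markers (beside 2.37%). The count was 1 with TPM rescaled without mitochondrial and noncoding RNAs (beside 13.6%) and 1 without the 3 libraries lowest in Pecam1 (beside 14.2%). With each library left out in turn it was 1 to 7. In the last setting 17.4% to 37.6% of all genes were called. The median r over pairs was 0.0885 with the marker mean removed and 0.501 without those 3 libraries.

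Signs turned as follows. Relative to the pan-endothelial markers Eng was -0.072, Acvrl1 -0.044, Bmpr2 -0.16, Smad7 -0.12, Id1 -0.14 and Id3 -0.12. With leukocyte and fibroblast covariates Eng was -0.52, Acvrl1 -0.42, Bmpr2 -0.47, Smad7 -0.16, Id1 -0.38, Id3 -0.43 and Id2 0.0058. Without the 3 libraries lowest in Pecam1 Eng was -0.033, Id1 -0.15 and Id3 -0.13. Without experiment 1 Bmpr2 was -0.15, Smad7 -0.0071 and Id3 -0.016, without experiment 3 they were -0.11, -0.044 and -0.041, and without experiment 4 Id1 was -0.17 and Id3 -0.12. With no experiment term Id1 was -0.0096 and Id3 -0.0033. The replicate block gave Tgfbr2 0.19, Smad6 0.33 and Smad1 0.62 (limma p = 0.0111, adjusted p = 0.277), and leaving out both shared-header columns gave 0.036 and 0.016. With each library left out in turn the ranges were -0.15 to 0.30 (Eng), -0.053 to 0.36 (Acvrl1), -0.092 to 0.24 (Bmpr2), -0.30 to 0.090 (Tgfbr2), -0.052 to 0.14 (Smad7), -0.18 to 0.12 (Id1) and -0.21 to 0.17 (Id3). The causes were not tested. TPM gives no depth, which limits what can be said of low genes such as Smad6.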
